A study of Homo sapiens with 16 samples.

Results

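The clustered protocadherins are cell adhesion genes that lie in 3 neighboring clusters on chromosome 5, named PCDHA, PCDHB and PCDHG. The members described here were all protein-coding genes of chromosome 5 whose symbol begins with PCDHA, PCDHB or PCDHG in the GENCODE annotation of hg19. There were 53 of them among 20163 protein-coding genes, with 15 in PCDHA, 16 in PCDHB and 22 in PCDHG, and all lie on the plus strand. The rule used position and name only, not a measured value. For each member, the window from 1 kb before to 1 kb after the start of the gene was examined. Each cluster was also examined as a span, from its first gene start to its last gene end.

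Protocadherins are homophilic adhesion proteins of the nervous system. A PCDHA or PCDHG transcript joins 1 large variable exon, which has its own promoter, to constant exons that all members of the cluster share, whereas PCDHB genes have a single large exon and no constant exons. Each neuron uses a small set of the variable promoters, and this choice gives it an identity at its surface. Promoter choice is known to involve DNA methylation, the looping factor CTCF with cohesin, and distant enhancers, and the variable promoters carry a short shared box with the letters CGCT. The last variable exons of PCDHA and PCDHG are called C-type, and in neurons they are used more uniformly than the others.

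CUT&Tag, in which an antibody tethers a transposase that cuts beside a histone mark, was used to map H3K27me3 and H3K4me1 in BE2C, an established human neuroblastoma cell line with amplified MYCN. H3K27me3 is a mark of Polycomb-repressed chromatin, and H3K4me1 is a mark of enhancers and of the flanks of active promoters. For each mark, BE2C cells transfected with the siRNA siKDM6B33 against the H3K27 demethylase KDM6B were compared with siCtrl cells at 72 h. In a second experiment, the cells grew for 72 h with the small molecule GSK-J4 at 2.5 µM, which blocks the KDM6 demethylases, or with 0.1% DMSO. This gave 16 libraries in 8 groups of 2 replicates, and 4 comparisons with separate controls. All groups share the 1 cell line. The study describes the 2 replicates as biological, and whether they were separate cultures is not given in the labels. KDM6B expression was not measured in these libraries.

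Each library had a list of broad regions, called islands, and a list of narrow peaks. The H3K27me3 libraries held 7175 to 16676 islands and 29752 to 61200 narrow peaks, and the H3K4me1 libraries held 17765 to 24917 islands and 61087 to 131341 narrow peaks. The genome background, given as tags that cover a base, ranged from 0.0298 to 0.0539 over the H3K27me3 libraries and from 0.0483 to 0.107 over the H3K4me1 libraries, so a summit of 2 tags could already be listed. All 11 adrenergic neuroblastoma marker genes had an H3K4me1 island at the start in at least 1 of 8 libraries, and 6 had one in all 8. Of these 11, 6 also had an H3K27me3 island in at least 1 library, none of them in siCtrl. TH and DBH, which encode enzymes of catecholamine synthesis and mark adrenergic cells, were covered by H3K27me3 islands over 100% of the start window in all 4 compound libraries and over 0% in both siCtrl libraries. In siKDM6B33 the coverage was 87.8% and 0% at TH and 100% and 95.8% at DBH. None of the 4 blood markers and 2 liver markers had an island of either mark. The 5 mesenchymal markers had H3K4me1 islands, and 4 of them also had H3K27me3 islands. Neither of the 2 epithelial markers had an H3K4me1 island, and both had H3K27me3 islands. In the compound experiment, 58.8% of the length under H3K27me3 islands in all 4 libraries was also under H3K4me1 islands in all 4, against 8.89% in the knockdown experiment. Signal shared between the compound libraries, errors in their labels and both marks on the same chromatin cannot be told apart from these lists, and this holds for every H3K27me3 value of that experiment below. The lists hold no reads. Where a region carries no call, a weak mark, low depth and missing DNA cannot be told apart.

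The sequences on which the results turn lie in PCDHG and at the end of PCDHA, and they are shown first. The 250 bases before the gene start of 5 members are given on the plus strand of hg19, with the letters CGCT in capitals. PCDHAC2 is the last member of PCDHA, PCDHGA1 is the first member of PCDHG, and PCDHGC3, PCDHGC4 and PCDHGC5 are the C-type members of PCDHG. The promoter of PCDHAC2 lies at chr5:140345805-140346054, that of PCDHGA1 at chr5:140709831-140710080, that of PCDHGC3 at chr5:140855264-140855513, that of PCDHGC4 at chr5:140864314-140864563 and that of PCDHGC5 at chr5:140868398-140868647.
PCDHAC2: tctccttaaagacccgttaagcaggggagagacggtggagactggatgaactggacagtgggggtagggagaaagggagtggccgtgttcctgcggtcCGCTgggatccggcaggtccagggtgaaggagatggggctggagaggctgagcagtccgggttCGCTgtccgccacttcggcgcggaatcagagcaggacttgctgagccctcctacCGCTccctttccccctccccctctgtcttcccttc
PCDHGA1: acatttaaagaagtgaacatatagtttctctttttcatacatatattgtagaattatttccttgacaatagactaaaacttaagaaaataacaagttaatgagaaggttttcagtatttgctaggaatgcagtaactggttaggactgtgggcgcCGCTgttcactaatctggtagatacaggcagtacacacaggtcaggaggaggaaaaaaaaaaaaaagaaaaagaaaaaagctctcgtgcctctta
PCDHGC3: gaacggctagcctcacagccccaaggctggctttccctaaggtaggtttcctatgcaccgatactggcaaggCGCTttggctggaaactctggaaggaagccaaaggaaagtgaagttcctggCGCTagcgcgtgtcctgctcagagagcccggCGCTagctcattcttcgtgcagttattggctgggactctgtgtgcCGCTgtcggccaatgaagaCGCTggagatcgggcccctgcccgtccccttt
PCDHGC4: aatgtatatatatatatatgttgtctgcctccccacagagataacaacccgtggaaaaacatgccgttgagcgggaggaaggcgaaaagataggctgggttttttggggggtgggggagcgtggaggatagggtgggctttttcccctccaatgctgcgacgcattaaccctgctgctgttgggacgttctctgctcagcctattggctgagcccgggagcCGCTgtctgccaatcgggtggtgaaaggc
PCDHGC5: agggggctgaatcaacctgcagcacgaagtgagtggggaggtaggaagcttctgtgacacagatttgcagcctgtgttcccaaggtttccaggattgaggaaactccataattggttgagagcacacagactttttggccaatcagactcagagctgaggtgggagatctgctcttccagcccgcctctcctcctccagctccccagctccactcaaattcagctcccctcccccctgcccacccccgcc
PCDHGC5 held no CGCT in these bases on either strand.

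Next are the sites in PCDHG and within 10 kb after it that held a narrow peak in all 8 H3K4me1 libraries. Narrow peaks of all libraries gave 48 merged sites in the 3 clusters and those 10 kb. Of these, 18 came from 1 library only and 4 were held by all 8 H3K4me1 libraries. In these sequences the capitals mark the bases that lie inside a narrow peak in at least 5 of the 8 H3K4me1 libraries. The first, at chr5:140864168-140864333, lies before PCDHGC4 and in introns of the PCDHG genes that start further upstream. The second, at chr5:140887620-140887819, and the third, at chr5:140888340-140888505, lie in the intron between constant exons 2 and 3 of PCDHG. The fourth, at chr5:140893722-140893921, lies past the last PCDHG exon and before the 3′ end of DIAPH1, a formin gene that is read from the opposite strand. For the second and the fourth, whose merged sites are wider, the 200 bases that most libraries cover are shown.
Before PCDHGC4: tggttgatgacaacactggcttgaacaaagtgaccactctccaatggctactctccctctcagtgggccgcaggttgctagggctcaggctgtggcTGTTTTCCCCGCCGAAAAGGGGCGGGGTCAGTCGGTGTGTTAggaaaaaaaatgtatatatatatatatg
Constant intron, first site: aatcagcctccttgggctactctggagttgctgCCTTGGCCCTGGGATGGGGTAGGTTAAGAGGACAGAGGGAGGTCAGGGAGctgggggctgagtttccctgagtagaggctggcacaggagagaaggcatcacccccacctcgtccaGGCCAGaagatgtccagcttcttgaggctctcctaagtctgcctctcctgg
Constant intron, second site: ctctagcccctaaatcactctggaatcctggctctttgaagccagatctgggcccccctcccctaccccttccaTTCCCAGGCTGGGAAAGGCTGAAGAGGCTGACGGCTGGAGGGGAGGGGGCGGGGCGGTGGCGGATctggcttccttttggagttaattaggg
Past the end of PCDHG: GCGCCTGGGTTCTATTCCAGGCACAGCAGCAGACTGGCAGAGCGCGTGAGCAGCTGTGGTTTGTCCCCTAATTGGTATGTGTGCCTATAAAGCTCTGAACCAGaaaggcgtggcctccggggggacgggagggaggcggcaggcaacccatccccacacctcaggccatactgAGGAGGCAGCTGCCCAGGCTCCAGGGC
The site before PCDHGC4 overlaps the first bases of the PCDHGC4 promoter shown above.

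The gene starts were nearly free of both marks. Of the 53 start windows, 50 held no island of either mark in any of the 16 libraries, and 46 held neither an island nor a narrow peak. PCDHGC3, PCDHGC4 and PCDHGC5 were the only members with an island, and all their islands were H3K4me1. Over all protein-coding genes, 66.5% of start windows held an island of either mark in at least 1 of the 16 libraries. For H3K27me3 the count was 0 of 53 members, beside 28.3% of all genes, and for H3K4me1 it was 3 of 53 members, beside 59.5%. Per library, 0 to 3 members held an H3K4me1 island, whereas 17.1% to 55.4% of all genes did.

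The PCDHA and PCDHB spans held no island. PCDHA runs over 226 kb from PCDHA1 to the end of PCDHAC2, and islands of both marks covered 0% of it in all 16 libraries. PCDHB runs over 198 kb from PCDHB1 to PCDHB15 and was also covered to 0% in all 16. No narrow peak of either mark lay in PCDHA in any library. A single one lay in PCDHB, of the first siKDM6B33 H3K4me1 library, with 3 tags at its summit and a fold enrichment of 3.61. Fold enrichment here is (summit tags + 1) over (local background + 1), so it understates the ratio where the background is low. The first and the last gene of PCDHA, PCDHA1 and PCDHAC2, and of PCDHB, PCDHB1 and PCDHB15, thus had no call at the start, and neither had PCDHAC1, the other C-type member of PCDHA.

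**Figure D1:**
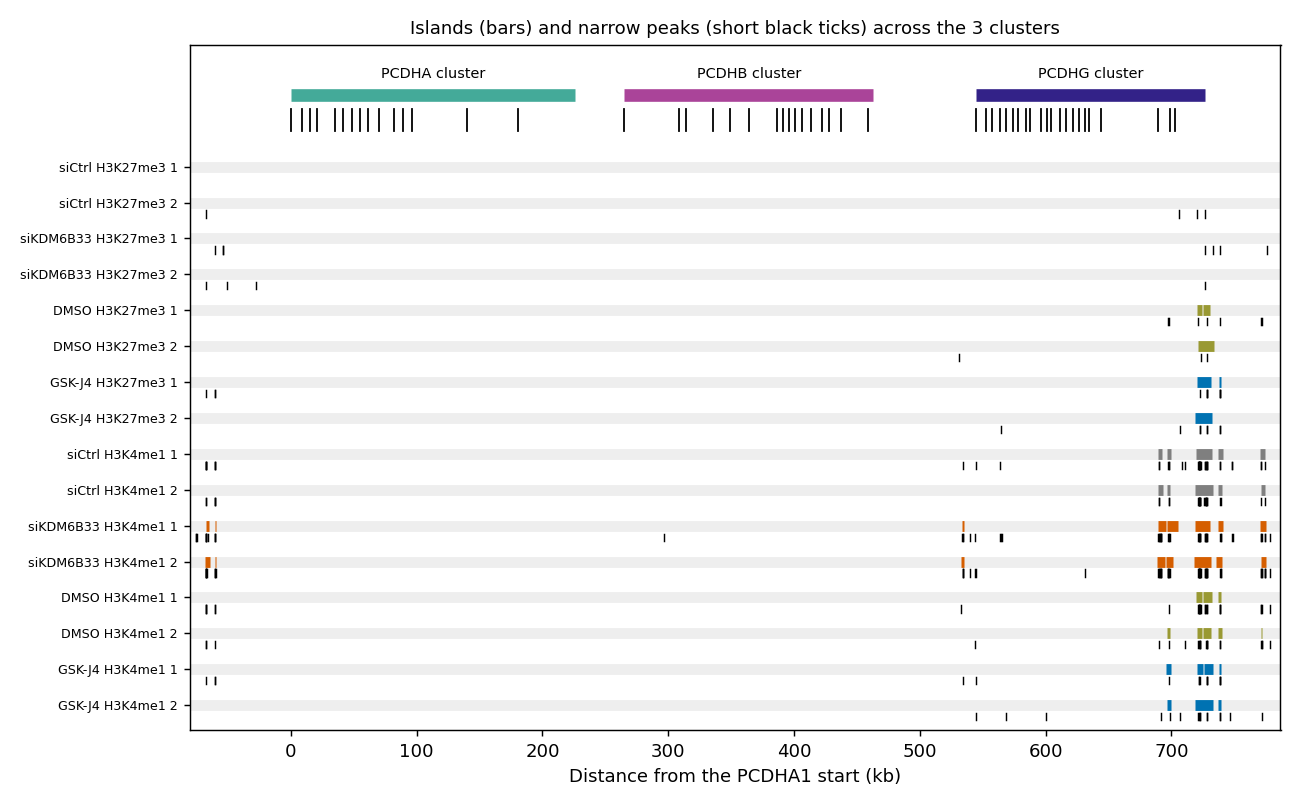
Islands (colored bars) and narrow peaks (short ticks under each row) in the 16 libraries, by distance from the PCDHA1 start in kb. The top bars are the cluster spans and the ticks under them are the 53 gene starts. Bars within the clusters lie only in the last part of PCDHG, and the H3K27me3 rows of siCtrl and siKDM6B33 have none.

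A chain of 34 neighboring protein-coding genes from PCDHA1 to SLC25A2, of which 31 were members, held no island of either mark at any start in any library. With 1 other chain of 34 genes it tied as the 13th longest of 2877 such chains, whose median length was 1 gene. A second chain of 19 genes ran from PCDHGA1 to PCDHGA12, all of them members. Between the chains lies TAF7, a general transcription factor gene that is not a protocadherin. It was free of islands in 14 libraries and had 80% and 72.5% of its start window under H3K4me1 islands in the 2 siKDM6B33 libraries. The other 3 protein-coding genes inside the region, SLC25A2 among them, had no island at the start in any library. Of 1089 stretches of 200 kb with at least 5 protein-coding starts, 96 (8.82%) held no island of either mark and 28 (2.57%) held no narrow peak of either mark. Long stretches without a call were thus present elsewhere in these lists too.

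Repeated sequence was counted in the start windows. Members of one cluster resemble each other, and reads that fit 2 places would have been dropped. Of the 50-base words of a start window, taken every 20 bases, a median of 0% occurred more than once in hg19, for the members and for all protein-coding genes alike. In 28 of 53 members (52.8%) no word was repeated, beside 58.4% of all genes. The clusters differed here. PCDHA had 3 of 15 windows (20%) with no repeated word and a median of 4.08% of words repeated, whereas PCDHB had 12 of 16 (75%) and PCDHG 13 of 22 (59.1%), both with a median of 0%. In 11 members (20.8%) more than 10% of the words were repeated, beside 11.2% of all genes. The highest values were 38.8% for PCDHB8 and PCDHB13 and 33.7% for PCDHA7. PCDHA1, PCDHAC2, PCDHB1, PCDHB15, PCDHGA1 and the 3 PCDHGC genes had none.

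Base composition differed between members. The median of CpG sites in the 2 kb was 55 for the members and 90 for all genes, and the median GC content was 43% and 55%. The most CpG sites among members were at PCDHAC1 with 126 and PCDHAC2 with 107, and neither had a call of either mark. PCDHGC3 had 94 and PCDHGC4 had 82, and both carried H3K4me1. PCDHGC5 had 30.

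In the promoters, taken as 250 bases before to 50 bases after the start, the letters CGCT stood on either strand in 51 of 53 members (96.2%), beside 76.8% of all protein-coding promoters. The exceptions were PCDHA11 and PCDHGC5. The median number of matches was 2 for the members and for all genes, so these letters alone do not identify the shared box. Of 8-letter words, 3 that overlap each other, agcgccac, cagcgcca and gcgccacc, were in the most member promoters, with 14 each, almost all of PCDHB. The word agcgccac, read as gtggcgct on the other strand, was held by 14 of the 16 PCDHB promoters, by none of PCDHA or PCDHG, and by 1.43% of all promoters. The word acagcggc, read as gccgctgt on the other strand, stood in 11 of the 22 PCDHG promoters and in 1.74% of all. Read as gccgctgt it contains the letters CGCT, and it can be seen in the PCDHGA1, PCDHGC3 and PCDHGC4 sequences above. The words were picked as the commonest in these promoters, so their counts are a description. The CTCF core consensus, searched as 12 letters with no mismatch allowed, was in 0 of 53 member promoters, beside 0.531% of all promoters. The count of 0 was close to that low share, and CTCF sites that depart from the consensus were not searched. In the spans, searched on both strands, it occurred 4 times in PCDHA, 0 times in PCDHB and 2 times in PCDHG. Per 100 kb this was 1.77 in PCDHA, 0 in PCDHB and 1.096 in PCDHG, beside 0.384 in the genome. The rates rest on these few matches, and enrichment was not tested. Of the 4 matches in PCDHA, 3 lay 462 to 613 bases after the starts of PCDHA4, PCDHA7 and PCDHA13, and both matches in PCDHG lay in the last constant exon.

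Other gene families showed that the lists do hold calls at clustered genes. HOX genes, which encode homeodomain factors in 4 clusters and are classical Polycomb targets, had an H3K27me3 island at 34 of 39 starts in at least 1 library and at 29 in all 8. Per library, 74.4% to 87.2% of HOX starts carried H3K27me3. Of the 12 non-clustered protocadherins examined, such as PCDH10 and PCDH19, 5 had H3K27me3 and 10 had H3K4me1 in at least 1 library. Of 249 zinc finger genes on chromosome 19, another clustered family, 11 had H3K27me3 and 145 had H3K4me1. The chromosome 19 genes were close to the protocadherins for H3K27me3, at 0.402% to 3.21% of starts per library, but not for H3K4me1 after the knockdown, where they reached 53.8%. The highest share of protocadherin starts in any library was 5.66%. Of 14 genes for factors that act on these clusters, such as CTCF, RAD21 and SMCHD1, 11 had H3K4me1 and 3 had H3K27me3 at the start in at least 1 library. In the knockdown, H3K4me1 coverage was higher in both siKDM6B33 libraries than in both controls at 6 of the 12 non-clustered protocadherins, at 7 of the 14 factor genes, at 15 of the 39 HOX genes and at 107 of the 249 zinc finger genes, beside 36.8% of all genes.

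**Figure D2:**
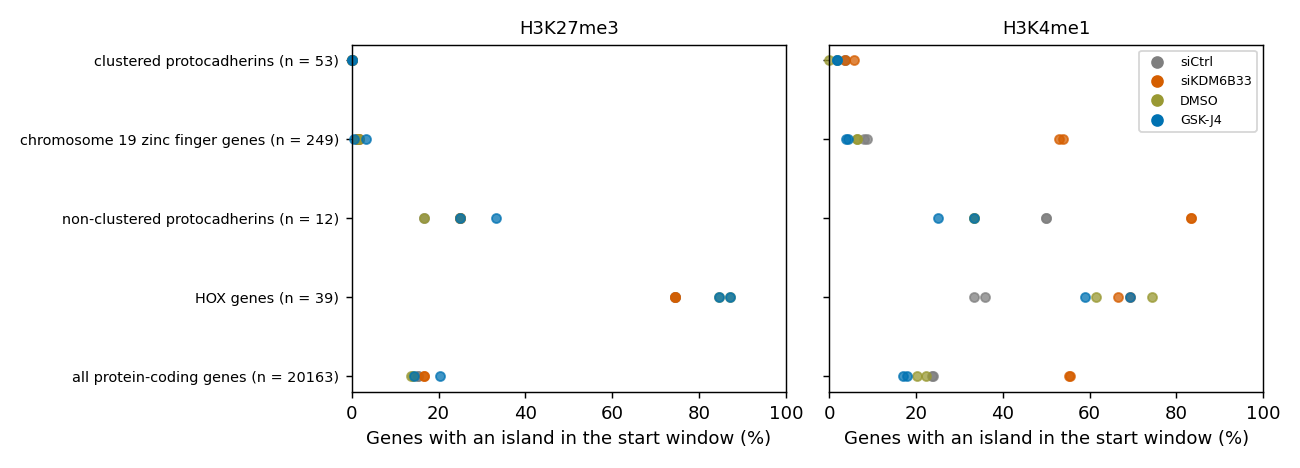
Percent of genes with an island in the start window, for 5 gene sets in rows, with H3K27me3 on the left and H3K4me1 on the right and 1 point for each library. Clustered protocadherins sit at 0% for H3K27me3 and between 0% and 5.66% for H3K4me1, and all protein-coding genes reach 55.4% for H3K4me1 in the siKDM6B33 libraries.

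The comparisons of treated with control cells asked whether lower KDM6B or KDM6 inhibition changes the marks. No member gained or lost an island at the start in both treated libraries against both controls, for either mark in either experiment. Over all genes, H3K27me3 was gained at 1.32% and lost at 0.446% of starts in the knockdown, and gained at 0.754% and lost at 0.154% with GSK-J4. H3K4me1 was gained at 29.0% and lost at 0.749% of starts in the knockdown. With GSK-J4 it was gained at 0.521% and lost at 2.15%. In 3 of the 4 comparisons the background was at most 2.15%, so that a count of 0 of 53 was close to it. The H3K4me1 knockdown was the exception, with 0 of 53 members gained beside 29.0% of all genes.

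Members were also counted as higher or lower when both treated libraries lay beyond both controls in the percent of the start window under islands. For H3K27me3 no member was higher or lower. Over all genes 2.64% were higher and 1.04% lower in the knockdown, and 0.982% were higher and 1.03% lower with GSK-J4. For H3K4me1 in the knockdown, PCDHGC3 and PCDHGC4 were higher (3.77% of members) beside 36.8% of all genes, and none was lower beside 1.30%. For H3K4me1 with GSK-J4, PCDHGC4 was higher beside 1.38% of all genes, and none was lower beside 4.13%. The 2 siKDM6B33 H3K4me1 libraries also had the highest genome backgrounds, 0.107 and 0.105 tags, against 0.0902 and 0.0849 in siCtrl. They held an island at 55.4% of all starts, against 23.7% and 24.0% in siCtrl. The part of depth in the H3K4me1 results was not tested beyond the alternatives with lists of equal length.

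PCDHGC3 and PCDHGC4, whose starts lie 9 kb apart at the end of the variable region, carried most of the H3K4me1 of the members. At PCDHGC3, islands covered 55.7% and 65.7% of the start window in the siCtrl libraries and 85.7% and 100% in the siKDM6B33 libraries. Both siKDM6B33 libraries lay above both controls (mean 92.8% ± 10.1 against 60.7% ± 7.07, SD, n = 2; exact two-sided permutation test, p = 0.33). With 2 libraries against 2, 0.33 is the smallest p this test can give. In DMSO and GSK-J4 cells the PCDHGC3 window was at 0% in all 4 libraries, although DMSO replicate 2 listed 1 narrow peak there, with 6 tags at the summit.

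The island at PCDHGC3 was 3000 and 4000 bp wide in siCtrl and 6400 and 7000 bp wide in siKDM6B33 (exact permutation test, p = 0.33). Its score, which SICER sums over windows and which grows with depth and width, was 102 and 117 in siCtrl and 1387 and 1419 in siKDM6B33. The strongest narrow peak of the window had 5 and 6 tags at its summit in siCtrl and 30 and 20 in siKDM6B33.

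At PCDHGC4, islands covered 81.9% and 71.9% of the start window in siCtrl and 100% in both siKDM6B33 libraries (p = 0.33, exact permutation test). The mean difference was 23.2 percentage points, and with a window of 500 bp on each side it was 3.15 (p = 1, exact permutation test). The island was 3200 and 3000 bp wide in siCtrl and 9200 and 5400 bp wide in siKDM6B33. In the compound experiment the window was covered to 0% and 61.9% in DMSO and to 81.9% in both GSK-J4 libraries (p = 0.33, exact permutation test). The DMSO libraries thus differed from each other by more than their mean differed from GSK-J4. The mean difference of 50.9 percentage points was 20 without DMSO replicate 1 and 81.9 without DMSO replicate 2. When the 4 lists were trimmed to the same covered length, it turned to -30.9 percentage points. The merged site before PCDHGC4, the first site shown above, held a narrow peak in all 8 H3K4me1 libraries, although no base of it was covered in more than 7. The peaks had 6 to 22 tags at the summit in the knockdown experiment and 4 to 6 in the compound experiment.

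PCDHGC5, the last variable exon, had H3K4me1 over 100% of its start window in siKDM6B33 replicate 1 and 0% in all other libraries. That island was the 9200-bp one that begins at PCDHGC4, and no narrow peak lay in the PCDHGC5 window in any library. The 2 siKDM6B33 libraries disagreed here, so no difference between groups can be read from it.

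**Figure D3:**
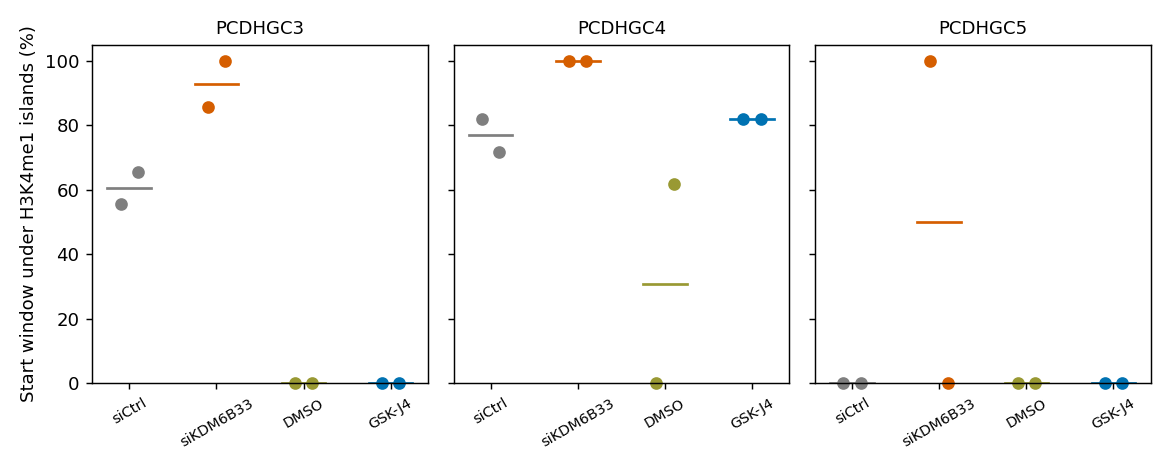
Percent of the start window of PCDHGC3, PCDHGC4 and PCDHGC5 under H3K4me1 islands, with 1 point for each library and a line at the mean of the 2 replicates. PCDHGC3 is at 55.7% to 100% in the knockdown experiment and at 0% in the compound experiment, and 1 siKDM6B33 library alone holds PCDHGC5.

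Other PCDHG members had narrow peaks but no island. PCDHGA1, the first gene of the cluster, had a narrow peak of 10 and 8 summit tags close before its start in the siKDM6B33 H3K4me1 libraries, with fold enrichments of 9.15 and 7.81. In siCtrl only replicate 1 listed a peak in that window, with 2 tags. In the compound experiment the H3K4me1 peaks at PCDHGA1 had 2 tags in DMSO replicate 2 and 3 and 4 tags in the GSK-J4 libraries, and DMSO replicate 1 listed none. PCDHGB1, which follows PCDHGA3 in the cluster, had H3K4me1 peaks in siCtrl replicate 1 with 2 tags and in siKDM6B33 replicate 1 with 6 tags. PCDHGA4 and PCDHGB7 each had 1 peak of 3 tags, in 1 library. For H3K27me3, 2 members had a narrow peak, PCDHGC4 in DMSO replicate 1 and PCDHGB1 in GSK-J4 replicate 2, both of 2 tags.

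The islands inside PCDHG lay in its last part, from just before PCDHGC3 to the end. The span of 182 kb was split into the variable part up to 1 kb before PCDHGC3 (144 kb), the C-type part from there to the first constant exon (19.9 kb), and the constant part to the end of the last exon (18.2 kb). H3K27me3 islands covered 0% of the variable part and of the C-type part in all 8 libraries. H3K4me1 islands covered 0% of the variable part in 7 of 8 libraries and 0.355% in siKDM6B33 replicate 2, from the island that begins before PCDHGC3. The 19 members of the variable part thus lie in 144 kb without an island of their own.

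In the C-type part, H3K4me1 covered 31.2% and 35.2% in siCtrl and 78.5% and 59.9% in siKDM6B33 (33.2% ± 2.85 against 69.2% ± 13.2, SD, n = 2; exact permutation test, p = 0.33). Narrow peaks there numbered 6 and 4 in siCtrl and 12 and 14 in siKDM6B33 (p = 0.33, exact permutation test). Both measures were higher in both siKDM6B33 libraries than in both controls. In the compound experiment the C-type part was covered to 0% and 14.1% in DMSO and to 17.1% and 14.1% in GSK-J4, which overlapped at 14.1% (p = 0.667, exact permutation test).

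The constant part carried H3K4me1 in all 8 libraries, over 38.2% and 43.7% in siCtrl, 45.9% and 48.1% in siKDM6B33, 37.1% and 31.6% in DMSO, and 29.4% and 43.7% in GSK-J4. The knockdown libraries were above their controls (p = 0.33, exact permutation test), and the compound groups overlapped (p = 1, exact permutation test). In 5 of the 8 libraries a single island ran through this part and past the last PCDHG exon. In both DMSO libraries and GSK-J4 replicate 1 there were 2 islands, of which only the later one reached past that exon. Together the islands covered 12600 and 14000 bp in siCtrl, 12600 and 13600 bp in siKDM6B33, 12600 and 10600 bp in DMSO, and 11400 and 14400 bp in GSK-J4. Their total width did not separate treated from control in either experiment. By score, the highest of them in each library stood between 0.759% and 6.22% from the top of its list. This block thus held one of the stronger H3K4me1 regions of each library. The last constant exon lay wholly under the single island in those 5 libraries. In both DMSO libraries and GSK-J4 replicate 1 it lay partly under the later island. The first constant exon lay before all of these islands.

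The other 3 sites shown above lie in this block. By summit tags the second site of the constant intron was the strongest of the 4 sites in 7 of 8 libraries and tied with the site past the end of PCDHG in GSK-J4 replicate 2. It had 62 and 67 summit tags in siCtrl, 74 in both siKDM6B33 libraries, 29 and 39 in DMSO, and 28 and 25 in GSK-J4. Its fold enrichment was 14.0 and 15.3 in siCtrl and 12.5 and 12.4 in siKDM6B33, and 10.0 to 14.7 in the compound experiment. The site past the end of PCDHG had 48 and 52 summit tags in siCtrl and 40 and 36 in siKDM6B33, so both siKDM6B33 libraries lay below both controls there. It had 22 in both DMSO libraries and 20 and 25 in GSK-J4. The first site of the constant intron was weaker, with 8 to 36 tags over the 8 libraries. Its peaks did not all overlap, since no base shown was covered in more than 7 libraries. Narrow peaks in the constant part numbered 10 and 6 in DMSO and 3 and 4 in GSK-J4 (p = 0.33, exact permutation test), so both GSK-J4 libraries lay below both DMSO libraries.

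H3K27me3 islands lay in this block in the compound experiment only, whereas narrow peaks of 2 or 3 tags were listed there in 3 of the 4 siRNA libraries. Islands covered 27.2% and 32.7% of the constant part in DMSO and 37.1% and 43.7% in GSK-J4 (29.96% ± 3.89 against 40.4% ± 4.67, SD, n = 2; p = 0.33, exact permutation test). All 4 siRNA libraries were at 0% under islands. Both GSK-J4 H3K27me3 libraries had higher genome backgrounds, 0.0507 and 0.0371 tags, than the DMSO libraries, 0.0298 and 0.0338 tags. GSK-J4 replicate 1 also listed 16676 islands, against 8006 in replicate 2. The part of depth in the coverage of the constant part was not tested. Block width was 8800 and 12800 bp in DMSO and 11600 and 13200 bp in GSK-J4, which overlapped. At the second intron site, an H3K27me3 narrow peak was listed in 1 of 8 libraries, GSK-J4 replicate 2, with 24 summit tags. At the site past the end of PCDHG it was listed in all 4 compound libraries, with 6 to 10 tags, and in no siRNA library.

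The H3K27me3 calls of the compound experiment lay on top of the H3K4me1 calls. In and just after PCDHG, 8600 bp were under H3K27me3 islands in all 4 compound libraries, and 8200 bp of these (95.3%) were also under H3K4me1 islands in all 4. The lists of the 2 marks were widely shared in that experiment, as given above, so the H3K27me3 coverage of the constant part cannot be told apart from signal shared with H3K4me1.

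**Figure D4:**
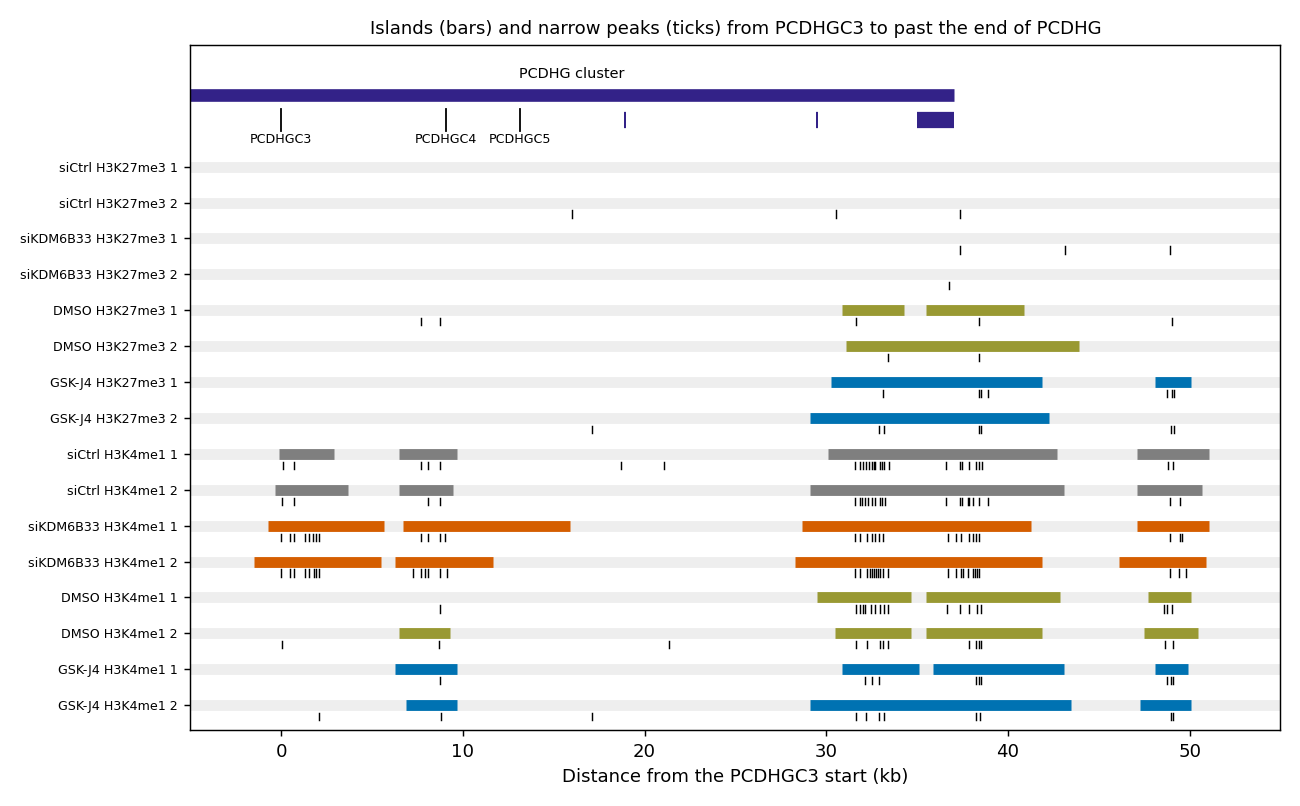
Islands (colored bars) and narrow peaks (ticks) from PCDHGC3 to past the end of PCDHG, by distance from the PCDHGC3 start in kb, in the 16 libraries; the blue blocks at the top are the constant exons. The PCDHGC3 bar is present in the 4 siRNA H3K4me1 rows only and is wider after siKDM6B33, and the end block is present in all H3K4me1 rows and in the compound H3K27me3 rows.

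Over the whole PCDHG span, H3K4me1 covered 7.20% and 8.19% in siCtrl and 13.1% and 11.6% in siKDM6B33 (p = 0.33, exact permutation test). Narrow peaks of H3K4me1 numbered 22 and 15 in siCtrl and 23 and 28 in siKDM6B33 (p = 0.33, exact permutation test), 11 and 8 in DMSO, and 4 and 9 in GSK-J4 (p = 0.667, exact permutation test). With GSK-J4, span coverage was 4.79% and 5.89% against 3.70% and 4.68% in DMSO (p = 0.33, exact permutation test), and with lists of equal covered length this difference turned from 1.15 to -0.548 percentage points. H3K27me3 span coverage was 2.71% and 3.26% in DMSO and 3.70% and 4.35% in GSK-J4 (p = 0.33, exact permutation test) and 0% in all siRNA libraries. Both GSK-J4 H3K27me3 libraries had higher genome backgrounds than the DMSO libraries, as given above. With lists of equal covered length the H3K27me3 difference stayed at 1.04 percentage points, and the part of depth was not tested further. With 10 kb added on each side of the span, this difference of 1.04 percentage points was 0.790 and the groups no longer separated (p = 0.667, exact permutation test). No comparison passed a threshold of 0.05, which this design cannot reach. The knockdown difference in H3K4me1 span coverage lay between 3.89 and 5.43 percentage points when any 1 library was left out. Other differences rested more on single libraries. The GSK-J4 difference in span coverage was 0.658 without DMSO replicate 1 and 0.603 without GSK-J4 replicate 2. The knockdown difference of 7 narrow peaks was 3.5 without siCtrl replicate 2 and 4.5 without siKDM6B33 replicate 2. The GSK-J4 difference of -3 narrow peaks was -1.5 without DMSO replicate 1. It was -0.5 when GSK-J4 replicate 1 was left out and -5.5 when replicate 2 of that group was.

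**Figure D5:**
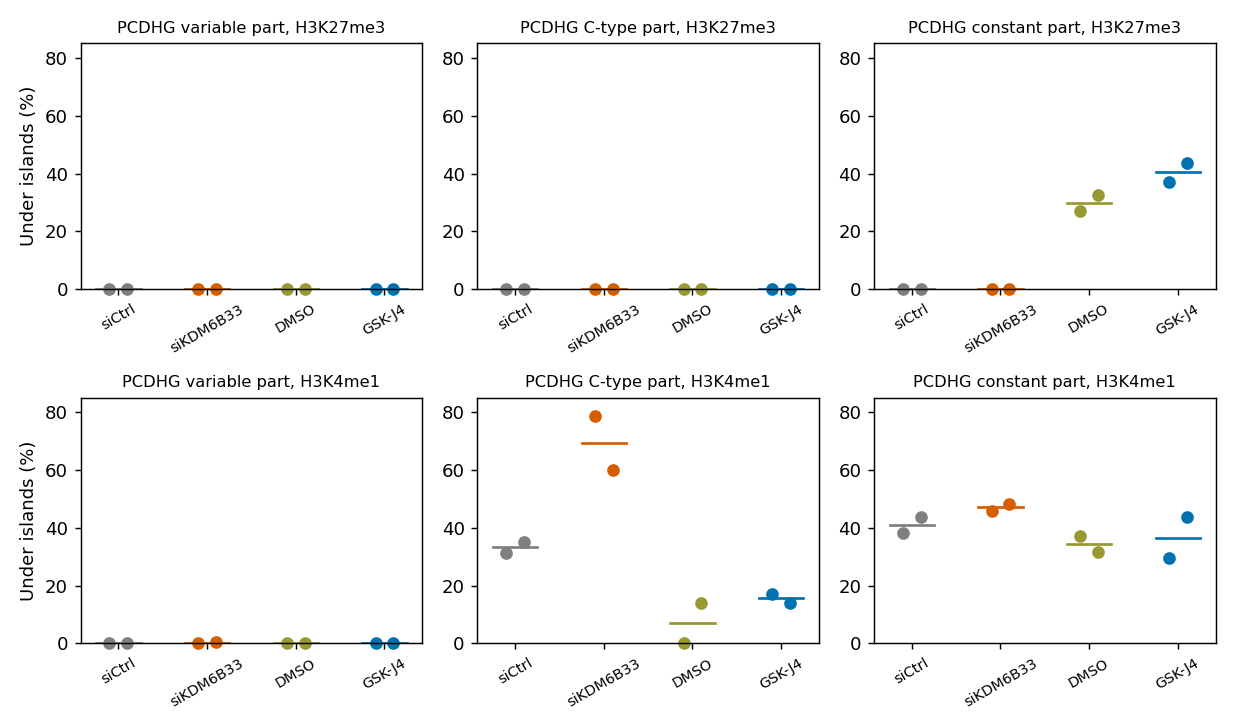
Percent of the variable, C-type and constant parts of the PCDHG span under islands, with H3K27me3 in the top row and H3K4me1 in the bottom row, 1 point for each library and a line at the mean of the 2 replicates. Only the C-type part separates siCtrl (31.2% and 35.2%) from siKDM6B33 (78.5% and 59.9%) by a wide gap, and H3K27me3 is above 0% only in the constant part of DMSO and GSK-J4.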

How the data were processed

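H3K27me3 and H3K4me1 CUT&Tag libraries of BE2C cells were grouped by their titles. The authors trimmed reads with Trim Galore 0.4.4, aligned them to hg19 with BWA 0.7.12, dropped duplicates with Picard 1.65 and retained paired fragments of 150 to 2000 bp, library by library. In the island lists deposited by the authors, each score is a SICER 1.1 sum over 200-bp windows joined across gaps of up to 600 bp, and it grows with depth and width. In the deposited narrow peak lists, made with MACS2 (q of 0.05), every peak has a fold enrichment, the ratio (summit tags + 1) to (local background + 1), and its p and q as −log10 values. The submitters' processing notes name MACS2 2.1.1 and the methods name 2.2.7.1. Scaling to spike-in reads and tests on reads were not used here.

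Python 3.11.15 with NumPy 2.4.6, SciPy 1.17.1 and matplotlib 3.10.9 was used, with GRCh37 and GENCODE 44 mapped to it. Coordinates are 1-based. Coverage is the percent of bases under islands, and a narrow peak was counted where its centre lay. Summit tags and background were solved from fold and −log10 p (tolerance 0.01), and depth was the lowest background among the 20 commonest pairs. Group values were compared by exact permutation (two-sided, difference of means), which cannot give a p under 0.33 here. Each p-value only ranks the difference of means among relabelings of these libraries alone. Calls of gained, lost, higher and lower starts were made over all 20163 protein-coding genes and carry no p-value. The blocks at PCDHGC3, PCDHGC4 and the end of PCDHG were drawn where islands lay. Named members were the C-type members, up to 8 members per comparison with the largest difference between groups that did not overlap, the 3 members with the highest control peak, and the first and last of each cluster. PCDHGA4, PCDHGB1 and PCDHGB7, and members named for their sequence, were named after their values were seen. Members and lists were chosen with earlier results of these data known. Alternatives were island width, lists of equal covered length or number, start windows of 500 bp or 2 kb, 10 kb added to the spans, stricter or joined narrow peaks, and leaving out each library.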

Additional observations from a re-analysis of the deposited data

How the results depend on the processing

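Of 44 results, 30 were 0, mostly for spans and windows without a call, and these say little about stability. For the other 14, 110 values were computed under the alternatives, of which 97 kept the direction or, for counts, stayed within 1.5 times the count, 8 went to 0 and 5 changed sign. The causes were not tested. With lists of equal covered length, the PCDHG span difference for H3K4me1 with GSK-J4 turned to -0.548 percentage points, that of the PCDHGC4 start window turned to -30.9, and the count of higher members there went from 1 to 0. The difference in H3K27me3 narrow peaks in PCDHG, -0.5 in the knockdown, was 0 at −log10 q of at least 2 or of at least 5 and ran from -1.5 to 0.5 when 1 library was left out. With GSK-J4 it was 0.5, was 0 with equal numbers of peaks and ran from -1 to 2 when 1 library was left out. The PCDHB difference of 0.5 H3K4me1 narrow peaks in the knockdown was 0 at −log10 q of at least 5 and 0 to 1 with 1 library left out. Gained H3K4me1 starts went from 0 to 1 in the knockdown with 2-kb windows, and to 0 to 1 in both experiments with 1 library left out; without siKDM6B33 replicate 2 this was PCDHGC5, and without DMSO replicate 2 it was PCDHGC4. The PCDHGC5 difference ran from 0 without siKDM6B33 replicate 1 to 100 without replicate 2. The knockdown differences of PCDHGC3 kept their sign under every alternative run, between 22.5 and 39.4 percentage points, and those of PCDHGC4 between 3.15 and 36.6, with no separation of the groups at 3.15 (windows of 500 bp, exact permutation p = 1). Members with higher H3K4me1 in the knockdown went from 2 to 3 without siKDM6B33 replicate 2, the third being PCDHGC5.

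Same-numbered libraries are not said to share a culture or day, and their deviations across start windows did not move together, with correlations of -0.0425 to 0.0369. With the replicate block, 2 of 2 pairs moved in the direction of the mean for PCDHG span coverage of H3K4me1 in both experiments and of H3K27me3 with GSK-J4, and the counts of higher members stayed at 2 and 1 for H3K4me1. For narrow peaks in PCDHG only 1 of 2 pairs did so for H3K27me3 in both experiments and for H3K4me1 with GSK-J4, as did 1 of 2 for PCDHGC5 and for PCDHB peaks in the H3K4me1 knockdown. Depth limits calls of absence, since a region can carry a mark too weak for these lists.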
